A study of Mus musculus with 4 samples.

Results

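The 108 cells described here were picked out of single-cell RNA sequencing of mouse molar tooth organs by cartilage genes, and carry the working name of chondrocytes next to the tooth. They were selected on measured counts: a cell had to hold at least 10 UMIs of Col2a1, at least 2 UMIs in all of Acan, Matn1 and Sox9, and 0 UMIs of Epcam, Ptprc and Pecam1, which mark epithelium, leukocytes and endothelium. UMIs are molecular tags, so that each is counted as 1 RNA molecule caught from a cell. Cells were first required to have at least 1000 UMIs and under 10% of them from mitochondrial genes, and cells of the P1 mandibular library whose barcode also occurs in the P1 maxillary library were left out. Of the 42164 cells that remained, from 56940 deposited barcodes, 29 of 6582 were selected in the E15.5 mandibular molar (0.441%, exact binomial 95% interval 0.295 to 0.632%), 19 of 9679 in the E15.5 maxillary molar (0.196%, 0.118 to 0.306%), 29 of 9417 in the P1 mandibular molar (0.308%, 0.206 to 0.442%) and 31 of 16486 in the P1 maxillary molar (0.188%, 0.128 to 0.267%). In the P1 maxillary library the 6923 cells whose barcode also occurs in the P1 mandibular library were kept, and 0 of them were selected. They count in its 16486 cells and could enter the cells it is compared against. The 2 P1 shares are thus not on the same footing, and no difference is read from them. These intervals and those given for levels and ratios cover counting error only.

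The study profiled the maxillary and mandibular molars of wild type mice (genotype label WTB6) before and after birth, with 6 tooth organs pooled into 1 library for each stage and jaw. The embryos are labelled E15 in the sample titles and E15.5 in the protocol, and the pups P1 in the titles and P0/P1 in the protocol. Every library was made from dissected tooth organs dissociated with TrypLE, and the labels name no treatment or mutation for any group. With 1 library per stage and jaw there are no replicates, and differences between libraries are given as values with their counting intervals and without a test.

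The libraries held 86659227 (E15.5 mandibular), 109723360 (E15.5 maxillary), 139873101 (P1 mandibular) and 128812956 UMIs (P1 maxillary). The selected cells of the same libraries had medians of 38706, 24040, 13424 and 4085 UMIs, against 11613, 9841, 10864 and 4186 over all kept cells of each library. Their summed UMIs were 1056490, 482152, 457612 and 140946. The depth behind a level is therefore lowest in the P1 maxillary molar, where 1 UMI stands for 7.09 CPM (the UMIs of a gene summed over the selected cells of a library, per 1000000 of their summed UMIs).

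Cartilage is laid down by chondrocytes, which fill the space around them with type II collagen fibrils and the large proteoglycan aggrecan. In cartilage that grows, round cells multiply, then line up, and in the end enlarge and mineralise their matrix before bone replaces it. Indian hedgehog, secreted by cells about to enlarge, and parathyroid hormone-related protein, which slows that step, act on each other in a loop. In the embryonic face, cartilage forms the core of the lower jaw and the capsule of the nose, both close to the molar tooth organs.

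The 4 genes behind the selection lie on separate chromosomes of the mouse build mm10. Col2a1, which encodes the chain of type II collagen, is at chr15:97975602-98004695, Acan, which encodes aggrecan, at chr7:79053483-79115099, Matn1, which encodes a cartilage matrilin, at chr4:130944385-130955475, and Sox9, the transcription factor that switches on the cartilage programme, at chr11:112782224-112787760. Col2a1 stood at 2612 (2516 to 2712) CPM in the E15.5 mandibular, 4869.8 (4675 to 5071) in the E15.5 maxillary, 1337 (1234 to 1448) in the P1 mandibular and 8755 (8273 to 9258) in the P1 maxillary cells. It was lowest in the P1 mandibular molar, whose median cell held 13 UMIs against 68, 80 and 24 in the other libraries in the order just given. Sox9 was at 674, 703, 105 and 788 CPM, and at least 1 UMI of it was found in 29 of 29, 18 of 19, 6 of 29 and 26 of 31 cells. Sox9 was thus present in most cells outside the P1 mandibular library and in few cells inside it. Acan was at 521, 919, 426 and 1227 CPM. Matn1 was not detected in either mandibular library (0 UMIs each), was at 14.5 (5.84 to 29.9) CPM in 3 cells of the E15.5 maxillary molar and at 1135 (966 to 1325) CPM in 17 of 31 cells of the P1 maxillary molar. These values describe what the selection picked and support no further statement.

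Cells close to the threshold were concentrated in the P1 mandibular library. With 8 or 9 UMIs of Col2a1 and all other conditions met, 15 cells lay just outside there, against 2, 0 and 3 in the E15.5 mandibular, E15.5 maxillary and P1 maxillary libraries. With 10 or 11 UMIs, 6 cells lay just inside in the P1 mandibular molar, against 1, 0 and 1. Of the 161 kept cells with at least 10 UMIs of Col2a1, 32 lacked the required UMIs of Acan, Matn1 and Sox9, 14 had an excluded marker and 7 failed on both, and 20 of the 32 were in the P1 mandibular library. Among 1590 immune cells (at least 10 UMIs of C1qa, C1qb, C1qc and Tyrobp together) and 4630 erythroid cells (globin genes at 50% of UMIs or more), which should lack the gene, 0 reached 10 UMIs of Col2a1, and none held more than 2. The P1 libraries shared 7131 barcodes, for which 6597 cells were left out of the P1 mandibular library. Of the selected P1 maxillary cells, 0 carried a barcode of the P1 mandibular library. Selected cells of different libraries had 0 barcodes in common.

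**Figure D1:**
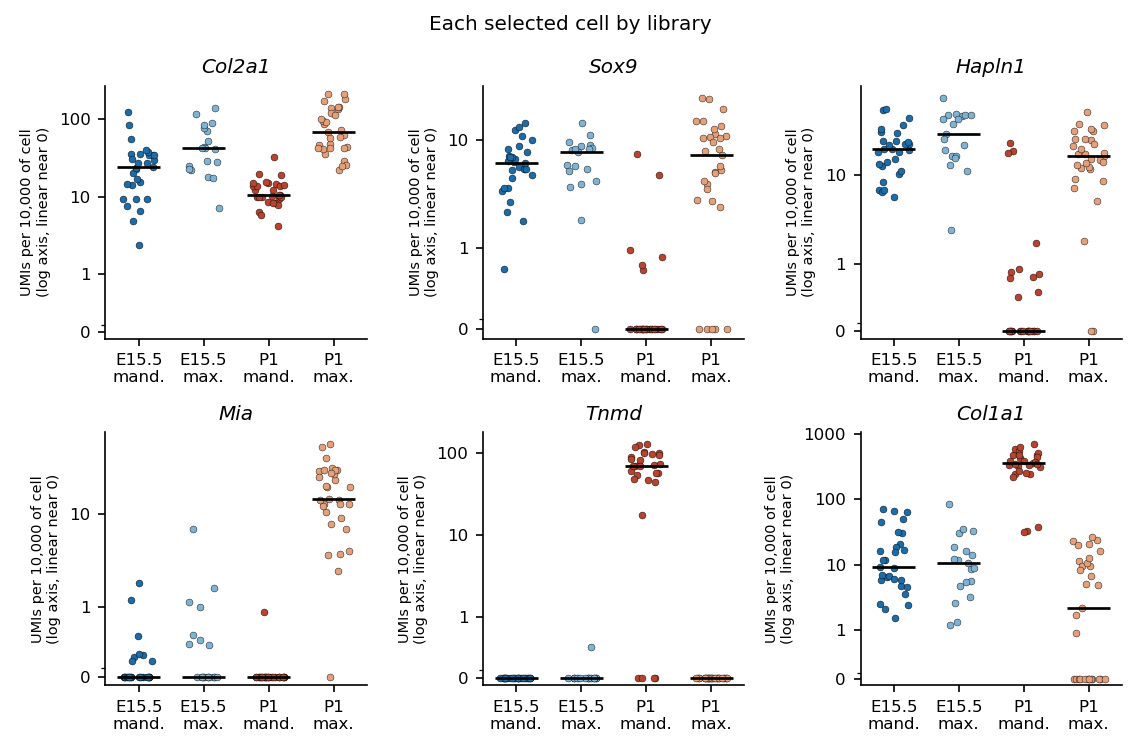
Each of the 108 selected cells by library, as UMIs of a gene per 10000 UMIs of the cell (log axis, linear near 0), with a bar at the median of the library. Tnmd and Col1a1 are high in 25 of the 29 P1 mandibular cells, where Sox9 and Hapln1 are mostly at 0, and Mia is high in the P1 maxillary cells.

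The name did not hold for most of the P1 mandibular cells. In 25 of those 29 cells, Tnmd, which encodes the tendon membrane protein tenomodulin (chrX:133850980-133865577), was present at 21 to 164 UMIs, whereas the other 83 selected cells together held 1 UMI of it. The 25 cells as a whole had 7686 CPM of Tnmd, 2730 CPM of Kera and 1852 CPM of Fmod, which encode collagen-binding keratocan and fibromodulin of tendon, and 38909 CPM of Col1a1, the type I collagen chain of bone and fibrous tissue. Cartilage genes outside the selection differed among themselves in these cells. Snorc, Cnmd and Col9a1 were at 0, whereas Col11a1 and Col11a2 were at 4057 and 1101 CPM. Of the genes of the selection, Col2a1 lay between 10 and 23 UMIs a cell, Acan was at 298.7 CPM and Sox9 at 6.29 CPM. A further 315 cells of that library had at least 10 UMIs of Tnmd without meeting the selection, and 20 of these also had at least 10 UMIs of Col2a1. Their Tnmd was at 4579 CPM and their Col2a1 at 235.6 CPM. The 25 cells are called Tnmd-positive cells here, a set formed after their values were seen.

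The other 4 selected cells of the P1 mandibular molar had no UMI of Tnmd and were not alike. One of them held 2116 UMIs of Ibsp and 1347 of Spp1, which encode bone sialoprotein and osteopontin of mineralised matrix, with 10 UMIs of Col2a1 and 2 of Sox9. That cell gave 96.5% of the Ibsp UMIs of the selected cells in this library. The other 3 held 31, 50 and 168 UMIs of Col2a1, 23, 16 and 5 of Sox9 and 56, 58 and 118 of Hapln1, the link protein that ties aggrecan to hyaluronan. The P1 mandibular level of Col9a1 came from these 3 cells alone, and 97.8% of that of Snorc from 1 of them. All 4 cells, and 1 of the Tnmd-positive ones, were among the highest doublet scores of the library, as was 1 selected cell of the E15.5 mandibular molar. Values of the P1 mandibular library below are to be read with this mixture in mind, and the 79 cells of the other 3 libraries, in which Tnmd was at 1 UMI in all, carry the account of cartilage.

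Over all genes, those of the selection included, the cells of each library were set against other mesenchyme, that is cells with at least 5 UMIs of Col1a1 and Col1a2 together, 0 of the excluded markers and no membership (2931, 5344, 4636 and 8311 cells in the E15.5 mandibular, E15.5 maxillary, P1 mandibular and P1 maxillary molars). Because the cells were chosen for cartilage genes, this contrast describes them and tests nothing. A gene was counted when it was at least 4-fold higher with at least 20 CPM in the selected cells, which held for 317 of 7660 genes in the E15.5 mandibular molar (4.14%), 370 of 7957 in the E15.5 maxillary molar (4.65%), 169 of 7621 in the P1 mandibular molar (2.22%) and 251 of 8121 in the P1 maxillary molar (3.09%). In all 3 libraries with at least 20 selected cells the count was met by 25 of 6769 genes (0.369%), and the same 25 were met when the E15.5 maxillary cells were added (25 of 6717, 0.372%). Col2a1 and Acan, which served in the selection, are among the 25. Without the Tnmd-positive cells, or without the whole P1 mandibular library, 53 genes were counted, the 25 among them, and without the cells of highest doublet score 8 of the 25 remained.

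Of a list of 20 cartilage matrix genes (the genes of the selection left out), 14 of 15 with enough counts were at least 4-fold higher in the E15.5 mandibular cells, 16 of 16 in the E15.5 maxillary, 10 of 13 in the P1 mandibular and 20 of 20 in the P1 maxillary cells. Over all genes 4.14, 4.65, 2.22 and 3.09% were counted in the same order. The cells were selected on other genes of cartilage, so these counts describe the selection and test nothing. Summed, the list stood at 8435, 14251, 7922 and 21413 CPM. Snorc, which encodes a small transmembrane proteoglycan of chondrocytes (chr1:87470271-87475482), was at 382 (346 to 422), 726 (652 to 806), 98.3 (71.7 to 132) and 624 (501 to 769) CPM in the order of libraries used above, against at most 0.374 CPM in other mesenchyme. Its log2 ratio to other mesenchyme was 10.21 (9.45 to 11.09), 10.92 (10.30 to 11.62), 9.93 (8.70 to 11.45) and 12.41 (11.37 to 13.66). It was found in 21 of 29, 17 of 19, 2 of 29 and 13 of 31 cells. In the P1 mandibular library 44 of its 45 UMIs were in 1 cell with a top doublet score, and without that cell Snorc was at 2.46 CPM (0.0624 to 13.7). The type IX collagen chain Col9a1, which coats type II fibrils, was at 844, 1112, 256 and 2086 CPM against 5.51, 5.11, 2.88 and 6.41 CPM in other mesenchyme, and was detected in every selected cell outside the P1 mandibular library. Its partner Col9a3 was at 504, 1108, 201 and 3143 CPM and highest in the P1 maxillary cells.

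The type XI collagen chains, which lie in the core of type II fibrils, did not follow that order. Col11a2 was at 476 (435 to 519.6), 604 (536 to 677), 948 (861 to 1042) and 879.8 (732 to 1049) CPM, and was found in all 29 P1 mandibular cells. Col11a1 was at 2826, 5077, 3964 and 5328 CPM, with log2 ratios to other mesenchyme of 3.20, 3.86, 2.89 and 3.50. Both were thus high also in the Tnmd-positive cells, unlike Col9a1 and Snorc. Hapln1 was at 1946, 3179.5, 527 and 1781 CPM, and in other mesenchyme at 14.6, 17.1, 127 and 151 CPM, so that it was also present outside the selected cells at P1. In the P1 mandibular library it was at 25.2 CPM in the Tnmd-positive cells and at 1669 CPM in the other 4. Prelp, a proteoglycan that binds collagen and basement membrane, was at 195, 203, 87.4 and 99.3 CPM, and its P1 mandibular UMIs came from 3 cells. Without the cells of highest doublet score it had 0 UMIs in that library and was no longer counted above other mesenchyme there. Its log2 ratio was then -0.11, with an upper limit of 0.20, a bound with 3 UMIs in place of the 0. Pcolce2, an enhancer of procollagen processing, was at 115, 99.6, 227 and 348 CPM against 3.85, 5.69, 20.3 and 16.9 CPM in other mesenchyme.

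**Figure D2:**
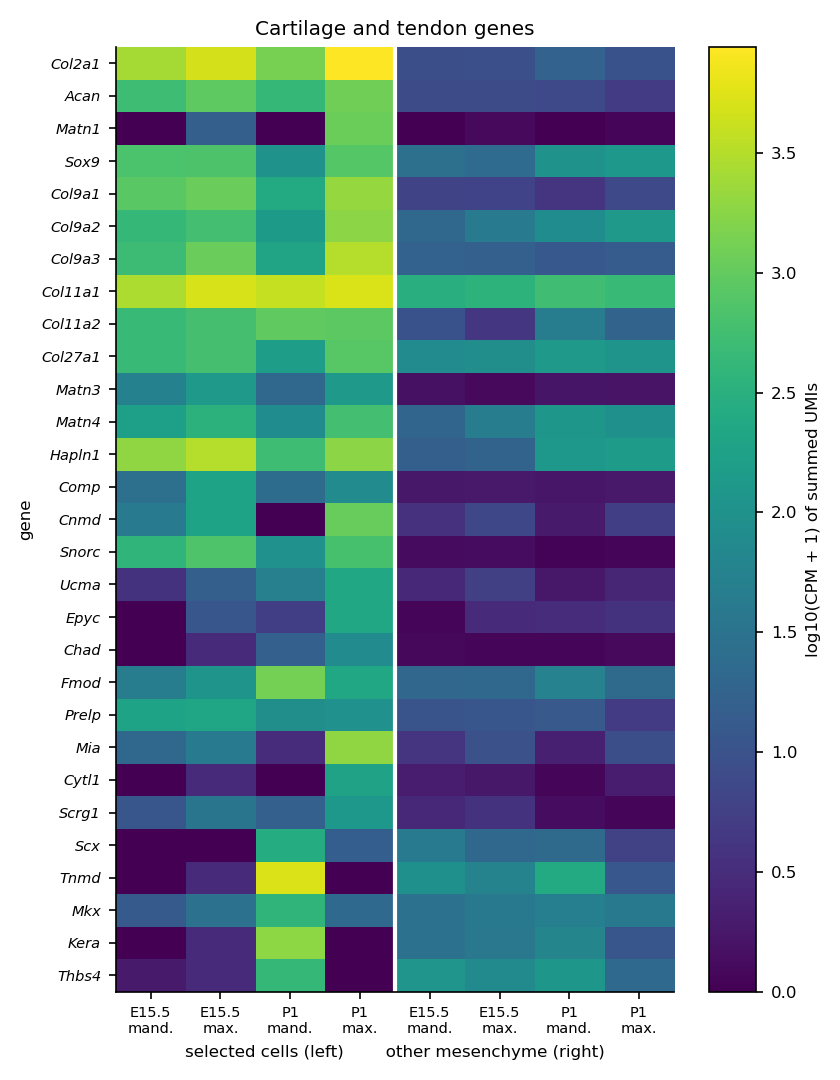
Level of cartilage and tendon genes as log10(CPM + 1) of summed UMIs, for the selected cells of each library (left) and the other mesenchyme of the same library (right). The tendon genes at the bottom are bright in the P1 mandibular selected cells, and Mia, Cnmd, Matn1 and Cytl1 in the P1 maxillary ones.

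Matrix synthesis also needs enzymes that build and sulphate the sugar chains of proteoglycans, and enzymes, chaperones and secretion factors of collagen. Of 17 such genes, 8 of the 16 with enough counts were at least 4-fold above other mesenchyme in the E15.5 mandibular cells, 9 of 16 in the E15.5 maxillary, 3 of 16 in the P1 mandibular and 6 of 16 in the P1 maxillary cells, beside 4.14, 4.65, 2.22 and 3.09% of all genes. Xylt1, Csgalnact1 and Slc26a2, which start the sugar chain, elongate it and import sulphate, were counted in all 4 libraries. In the P1 mandibular library Xylt1, Csgalnact1 and Slc26a2 were at 157, 104 and 12.6 CPM in the Tnmd-positive cells and at 623, 372 and 222 CPM in the other 4, against 31.8, 39.6 and 17.2 CPM in other mesenchyme. Xylt1 was at 513, 753, 299 and 553 CPM, with log2 ratios of 3.92 (3.77 to 4.06), 4.11 (3.95 to 4.27), 3.23 (2.97 to 3.48) and 4.22 (3.88 to 4.55). Chst11, which sulphates chondroitin, had log2 ratios of 4.32, 4.37 and 2.76 in the cells outside the P1 mandibular library and of 0.57 (0.14 to 0.97) in that library. P4ha2, a collagen prolyl hydroxylase, was counted at E15.5 only, with log2 ratios of 3.16 and 3.72, against -0.54 (-1.08 to -0.05) and 0.11 (-0.69 to 0.81) at P1. Prkg2, a protein kinase known to promote chondrocyte enlargement, was at 144, 224, 94.0 and 56.8 (24.5 to 112) CPM, the last from 8 UMIs.

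Among 10 transcription factors of cartilage, Sox6, which acts with Sox9 on the matrix genes, was at least 4-fold higher than in other mesenchyme in every library, at 1224, 1433, 433 and 1192 CPM. Its log2 ratios were 3.35 (3.26 to 3.44), 3.70 (3.59 to 3.82), 2.80 (2.58 to 3.01) and 3.47 (3.24 to 3.69). Of its 198 P1 mandibular UMIs, 172 were in the 4 cells without Tnmd, all with top doublet scores, and the Tnmd-positive cells had 81.8 CPM, near the 62.2 CPM of other mesenchyme. The related Sox5 was at 848, 834, 299 and 1447 CPM and was counted in all but the P1 mandibular library. Mef2c and Runx3, regulators of chondrocyte enlargement, were counted in the E15.5 libraries and in neither P1 library. Over all genes 4.14, 4.65, 2.22 and 3.09% were counted in the order of libraries used above. Erg, an ETS factor of articular cartilage and joints, was the 1 gene of 3 joint surface markers with enough counts in each library, at 28.4 (19.2 to 40.5), 95.4 (69.8 to 127), 39.3 (23.3 to 62.2) and 114 (64.9 to 184) CPM. Of its 18 P1 mandibular UMIs, 17 were in the Tnmd-positive cells.

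The E15.5 cells held transcripts of the step before enlargement, which were not particular to them. The 9 hedgehog and PTHrP genes summed to 1212 and 1406 CPM in the E15.5 mandibular and maxillary cells. Cells chosen outside the selection for bone genes, defined below, had 1080 and 1460 CPM. The 10 genes of a hypertrophy list, with Ibsp among them, summed to 1911 and 1533 CPM in the selected cells and to 9769 and 3069 CPM in the bone-gene cells. Pth1r, the receptor of parathyroid hormone-related protein, was at 794 (741 to 849.7) and 925 (841 to 1015) CPM in the E15.5 mandibular and maxillary cells, against 61.2 and 57.2 CPM in other mesenchyme. At P1 it was at 232 (189.6 to 280.2) and 21.3 (4.39 to 62.2) CPM, and the P1 maxillary value rests on 3 UMIs. It was detected in 29 of 29, 18 of 19, 9 of 29 and 3 of 31 cells. With each cell thinned to 2000 UMIs, 75.9, 84.2, 13.8 and 3.33% of the selected cells had it, against 9.22, 9.86, 8.58 and 8.17% of other mesenchyme. Panx3, which encodes a channel of differentiating chondrocytes and osteoblasts, was at 455 and 527 CPM at E15.5 and at 153 and 21.3 CPM at P1, where 4 mandibular and 2 maxillary cells had it. Mef2c was at 787 and 948 CPM at E15.5 and at 306 and 156 CPM at P1. Each of these genes was lower in the P1 library than in the E15.5 library of the same jaw. Runx2, the factor for bone and chondrocyte enlargement, was at 781 and 753 CPM at E15.5 and at 164 and 163 CPM at P1. Fgfr3, the receptor that restrains chondrocyte growth, was at 160.0, 222, 50.3 and 85.1 CPM. Fgfr3 was lower in both P1 libraries as well. Lgals3, a galectin known in enlarging chondrocytes and in macrophages, was at 1139.6, 1159, 297 and 42.6 CPM. The P1 mandibular levels were those of a mixture. In the 4 cells without Tnmd, Pth1r was at 723, Panx3 at 501, Mef2c at 895, Runx2 at 494, Fgfr3 at 165 and Lgals3 at 959.8 CPM, and in the 25 Tnmd-positive cells the same genes were at 15.7, 0, 47.2, 18.9, 0 and 6.29 CPM. Summed, the 4 cells thus lay near the E15.5 mandibular levels of most of these genes. They were not alike, however, and all had top doublet scores, and 44 of their 70 UMIs of Panx3 were in 1 cell. The P1 maxillary cells are the ones without Tnmd in which these genes were low.

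Ihh, which encodes Indian hedgehog (chr1:74945315-74951672), was at 48.3 (35.9 to 63.5) and 68.4 (47.1 to 96.1) CPM at E15.5, at 4.37 (0.529 to 15.8) CPM in the P1 mandibular cells and at 0 UMIs in the P1 maxillary cells. It was found in 21 of 29 (72.4%) and 7 of 19 (36.8%) cells at E15.5 and in 2 of 29 (6.90%) and 0 of 31 at P1, at medians of 38706, 24040, 13424 and 4085 UMIs a cell, so that the P1 maxillary count does not bound the share of cells that express it. In other mesenchyme the shares were 0.307% and 0.131% at E15.5, and 0 of 298 and 0 of 476 immune cells had it, at medians of 14565.5 and 11234 UMIs a cell. Because the P1 cells are shallower, each cell was also thinned to 2000 UMIs, which left out 1 selected P1 maxillary cell. The shares with Ihh then were 13.8, 15.8, 3.45 and 0%. Of the E15.5 maxillary UMIs of Ihh, 51.5% were in 1 cell. Col10a1, the type X collagen of enlarged chondrocytes, was at 0 UMIs in 3 libraries and at 1 UMI in each of 2 E15.5 maxillary cells (10.5% of them, and 0% after thinning). It was thus at or near the limit of detection in every library. Of the 10 genes of a hypertrophy list, Ihh, Panx3 and Sp7, of 8 with enough counts, were at least 4-fold above other mesenchyme in the E15.5 mandibular cells, Ihh, Panx3, Ibsp and Sp7, of 7, in the E15.5 maxillary, Ibsp and Spp1, of 7, in the P1 mandibular, and 0 of 6 in the P1 maxillary cells, beside 4.14, 4.65, 2.22 and 3.09% of all genes.

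Ibsp was spread unevenly over the E15.5 cells. At least 10 UMIs of it were found in 7 of 29 mandibular and 3 of 19 maxillary cells, and 17 and 13 cells had none. In the mandibular molar the 7 cells had 3993 CPM of Col1a1 (3737 to 4262), 1617 CPM of Pth1r (1456 to 1792) and 35.3 CPM of Snorc (15.2 to 69.5), while the other 22 had 863.1 CPM (801 to 929), 569.0 CPM (519 to 623) and 477 CPM (431 to 527) of the same genes. Summed, the 7 cells thus had more type I collagen and Pth1r and less Snorc. The intervals cover counting error and not the spread between cells. Single cells overlapped in Col1a1, at 12 to 308 UMIs in the 7 cells and 7 to 97 in the other 22. Hapln1, which the selection did not use, was at 1679 CPM in the 7 cells and at 2019 CPM in the other 22. Col2a1, which the selection required of every cell, was at 1952 and 2793 CPM. Mki67, a marker of dividing cells, was at 0 UMIs in the 7 cells and at 59.1 CPM in the other 22, of which 6 had any, and at 8.51 CPM (3.12 to 18.5) without the 2 cells highest in it. In the maxillary molar the 3 cells had 2959 CPM of Col1a1 and 248.4 CPM of Snorc, and the other 16 had 839.4 CPM of Snorc. Since the 10 cells were set apart by their own Ibsp count, these values describe them only. Cells chosen outside the selection for bone genes (Ibsp, Bglap, Bglap2 and Sp7 at 3 UMIs or more) had 5867 and 1657 CPM of Ibsp at E15.5 and 65.6 and 26.8 CPM of Hapln1, against 1946 and 3179.5 CPM of Hapln1 in the selected cells.

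**Figure D3:**
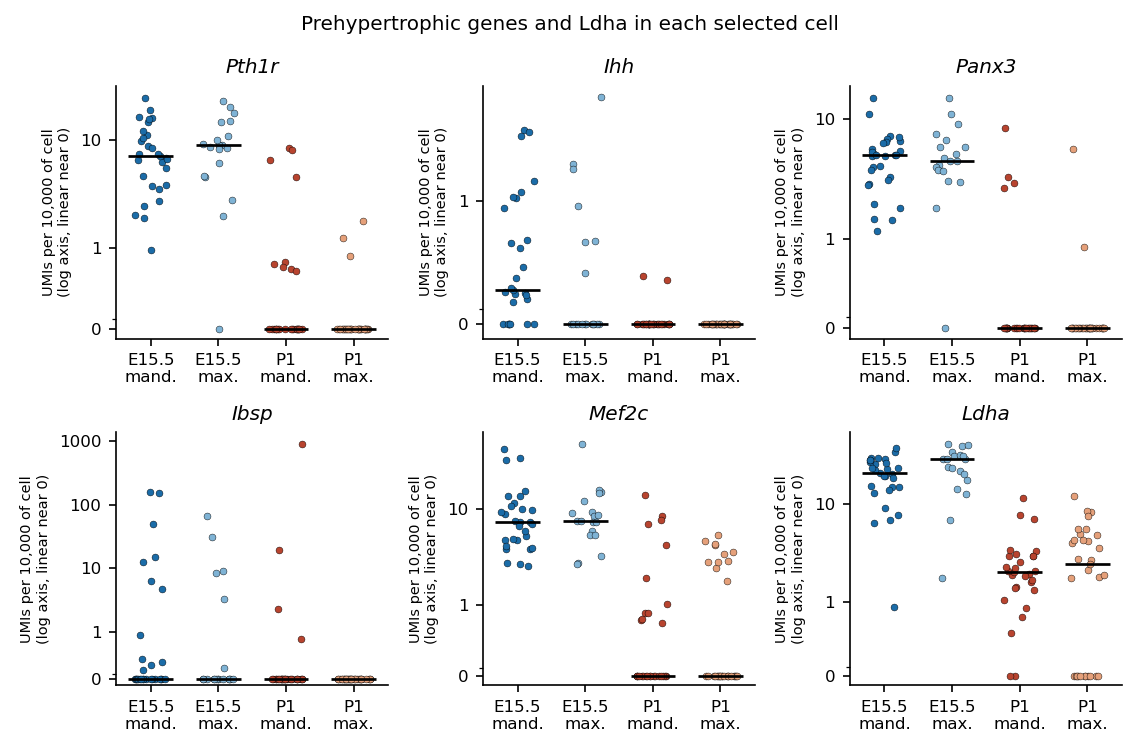
Genes of the step before chondrocyte enlargement, and Ldha, in each selected cell as UMIs per 10000 UMIs of the cell (log axis, linear near 0), with a bar at the median of the library. Nearly all E15.5 cells hold Pth1r, Panx3, Mef2c and Ldha, a few hold much Ibsp, and the P1 maxillary cells are mostly at 0 for Pth1r, Ihh, Panx3 and Ibsp.

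Genes of glycolysis and of the response to low oxygen were high in the selected cells of E15.5 and near other mesenchyme at P1. Summed over 10 genes, the level was 5896 CPM (5750 to 6044) in the E15.5 mandibular and 6979 CPM (6745 to 7219) in the E15.5 maxillary cells. It was 1121 CPM (1026 to 1222) and 1036 CPM (874.7 to 1218) in the P1 mandibular and maxillary cells. In other mesenchyme the sum was 854.1, 838.0, 746.5 and 795.0 CPM in the same order. Of the 9 genes with enough counts at E15.5, 7 in the mandibular and 8 in the maxillary cells were at least 4-fold above other mesenchyme, and at P1 0 of 8 and 0 of 9 were. Over all genes the shares were 4.14, 4.65, 2.22 and 3.09% in the order of libraries, so that 0 of so few at P1 does not set the list apart. Ldha, which makes lactate from pyruvate, was at 2149.6, 2678, 356 and 362 CPM, against 312, 314, 273 and 294 CPM in other mesenchyme. The log2 difference of P1 from E15.5 was -2.59 (-2.83 to -2.36) in the mandibular and -2.89 (-3.32 to -2.48) in the maxillary cells. For Pgk1, an enzyme that yields ATP, it was -2.48 (-2.79 to -2.18) and -3.05 (-3.66 to -2.50), and for Bnip3, which marks mitochondria for removal under low oxygen, -3.48 (-4.30 to -2.77) and -3.42 (-5.06 to -2.17). Every interval lies below 0 in both jaws for these 3 genes. Within the P1 mandibular library the list summed to 647.8 CPM in the Tnmd-positive cells and to 2199 CPM in the other 4, between the levels of E15.5 and those of the P1 maxillary cells, and Ldha was at 179 and 759 CPM. Slc2a1, the glucose transporter, was at 186 and 170.1 CPM at E15.5 and at 13.1 and 42.6 CPM at P1. Of the 9 genes with enough counts, 9 were at least 2-fold lower at P1 in the mandibular and 7 in the maxillary cells, and the same 7 in both jaws, beside 18.2, 20.6 and 7.33% of all genes.

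**Figure D4:**
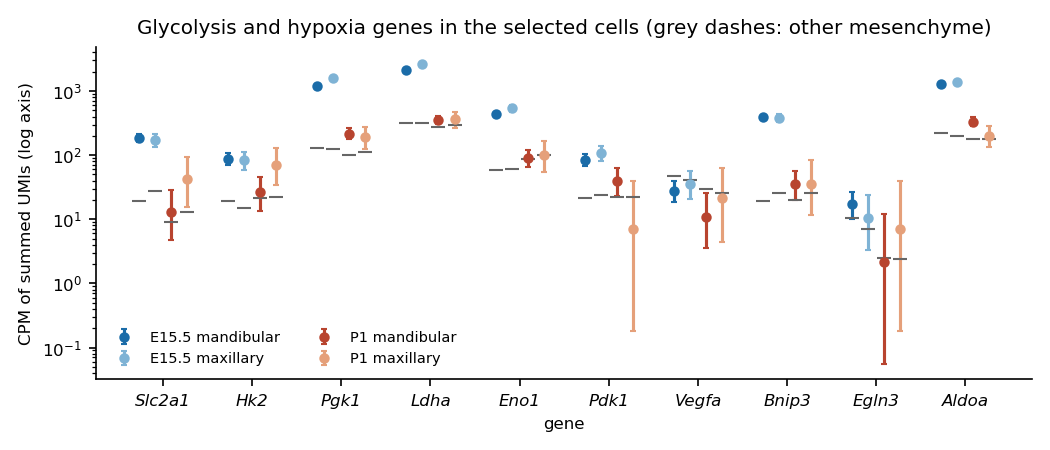
Level of 10 glycolysis and low-oxygen genes in the selected cells (CPM of summed UMIs, log axis; points with exact Poisson 95% intervals) and in the other mesenchyme of the same library (grey dashes). Ldha, Pgk1, Aldoa, Eno1 and Bnip3 lie above the dashes at E15.5 and near them at P1, and Vegfa and Egln3 do not show this.

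Across all genes, P1 was compared with E15.5 within a jaw, and a gene was counted when it was at least 2-fold different with at least 20 CPM in the higher group. In the mandibular cells 1055 of 7016 genes were higher at P1 (15%) and 1278 were lower (18.2%), and for 976 and 1114 of them the counting interval excluded a ratio of 1. The Tnmd-positive cells made up 25 of the 29 cells on the P1 side of this comparison, so that stage and kind of cell cannot be told apart in it. In the maxillary cells, with 19 cells at E15.5 and few UMIs at P1, 1456 of 7438 genes were higher (19.6%) and 1530 lower (20.6%), and the interval excluded 1 for 839 and 802. In both jaws together 362 of 6316 genes were higher (5.73%) and 463 lower (7.33%), with intervals excluding 1 in both jaws for 241 and 309. The median log2 difference over all genes with enough counts was -0.24 in the mandibular and -0.07 in the maxillary cells.

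The lists differed between the jaws. Of the cartilage matrix genes, 2 of 16 were higher and 11 lower at P1 in the mandibular cells, with a median log2 difference of -1.39, beside 15 and 18.2% of all genes. In the maxillary cells 10 of 20 were higher and 2 lower, with a median of 0.99, beside 19.6 and 20.6% of all genes. The maxillary cells had medians of 24040 UMIs at E15.5 and 4085 at P1, and the minimum of 10 UMIs of Col2a1 asks for a larger share from shallower cells. The part of the selection in the matrix counts was not tested. In both jaws together Ucma and Fmod were higher and Prelp lower, out of 16 with enough counts, beside 5.73% of all genes higher and 7.33% lower. In the P1 mandibular library 20 of the 23 UMIs of Ucma and 589 of the 611 UMIs of Fmod were in the Tnmd-positive cells. Ucma, a matrix protein of upper growth plate cells, was at 2.84 and 14.5 CPM at E15.5 and at 50.3 (31.9 to 75.4) and 219.9 (149 to 312) CPM at P1. Of the cartilage transcription factors, Runx2, Runx3, Mef2c and Trps1 were lower at P1 in both jaws, 4 of 7 with enough counts and none higher, beside the same shares of all genes. Of the matrix synthesis genes, Chsy1, Slc26a2, P4ha2 and Plod2 were lower in both jaws, 4 of 16 and none higher, again beside 7.33 and 5.73% of all genes lower and higher. Medians over these 16 were -0.98 in the mandibular and -0.63 in the maxillary cells. On the mandibular side of the counts over both jaws, 25 of the 29 P1 cells were Tnmd-positive, so stage and kind of cell cannot be told apart there. The 4 cells without Tnmd held 125 of the 140 P1 mandibular UMIs of Mef2c and 69 of the 75 of Runx2. In these 4 cells the level of Mef2c, given above, was not lower than at E15.5.

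The genes with the largest differences in the mandibular cells were those of the Tnmd-positive cells. Tnmd was at 0 UMIs at E15.5 and at 5341 CPM at P1, a log2 difference of at least 10.88 when 3 UMIs are put in place of the 0. Kera stood at 0 UMIs and 1899 CPM, and Thbs4, a thrombospondin of tendon, at 1 UMI and 428 CPM. Col14a1, Abi3bp, Cpz and Meox2, the first of them a fibril-associated collagen of tendon and skin, were at 8.52, 4.73, 0.947 and 0.947 CPM at E15.5 and at 3665, 1659, 231.6 and 179.2 CPM at P1, each in 21 to 25 of the 29 cells. Spp1 was also among them, with 98.8% of its P1 UMIs in 1 cell. In the other direction stood Acat2, Nsdhl and Mvd of sterol synthesis, at 133, 59.6 and 105 CPM at E15.5 and at 4.37, 2.19 and 6.56 CPM at P1. These 3 genes were at 143, 47.7 and 108 CPM in the E15.5 maxillary cells and at 1, 0 and 2 UMIs in the P1 maxillary cells. Bex2 and Atp2c2 also belonged to this group, the second with 44.7% of its UMIs in 1 cell, and so did Fcer1g, Hbb-bs and Hbb-bt, of which 97.8, 92.9 and 93.2% of the E15.5 mandibular UMIs were in 1 cell each.

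In the maxillary cells the largest differences were chosen for naming by the same rule after the libraries had been seen, because only 19 cells were selected there at E15.5. Among those higher at P1 were Ogn, Sorbs2, Cytl1, Itgbl1, Bmpr1b and Adarb2, each from 1 UMI at E15.5 apart from Sorbs2 with 3, and the globin gene Hbb-bt. Sorbs2, an adaptor of the actin skeleton, was at 752 (616 to 909.6) CPM in 25 of 31 P1 cells. Cytl1, a secreted factor of cartilage, was at 184 (120.5 to 270.3) CPM in 13 of 31 cells, and Bmpr1b, a BMP receptor that cartilage needs, at 156 (97.8 to 236) CPM in 11 cells. Lower at P1 were Pth1r, Ibsp and Lgals3, described above, and Ppm1e, Tagln2, Sgms2, Col24a1 and Ston2. Sgms2, which makes sphingomyelin, was at 664 CPM at E15.5 and at 21.3 (4.39 to 62.2) CPM at P1, and Tagln2, an actin-binding protein, at 757 and 21.3 (4.39 to 62.2) CPM. Of the E15.5 maxillary UMIs of Col24a1, 85.4% were in 1 cell.

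Several matrix genes were highest in the P1 maxillary cells. These cells were also the shallowest, at a median of 4085 UMIs against 38706, 24040 and 13424 in the other libraries. The minimum of 10 UMIs of Col2a1 thus asked for the largest share from them, and the part of the selection in these levels was not tested. Mia, which encodes a small secreted protein of cartilage (chr7:27179742-27181157), was at 1958 (1734 to 2203) CPM and found in 30 of 31 cells, against 20.8, 41.5 and 2.19 CPM in the E15.5 mandibular, E15.5 maxillary and P1 mandibular cells. Cnmd, which encodes chondromodulin, an inhibitor of vessel growth, was at 1043 (881 to 1226) CPM in 26 cells, against 41.6, 191 and 0 CPM. Epyc, Ucma and Chad, small matrix proteins of cartilage, were at 234, 219.9 and 78.0 CPM and below these levels in the other 3 libraries. Ibsp, Spp1, Ihh and Col10a1 were at 0 UMIs in all 31 cells, and 3 UMIs, the number a count of 0 allows, would be 21.3 CPM there. Against the P1 mandibular cells, 16 of the 20 cartilage matrix genes were at least 2-fold higher in the maxillary cells and 1, Fmod, was lower. Over all genes 1365 of 7340 were higher in the maxillary cells (18.6%) and 1154 lower (15.7%), and the interval excluded a ratio of 1 for 705 and 505. This comparison and that of the stages in the mandible share the P1 mandibular library, and setting the Tnmd-positive cells aside leaves 4 cells there, too few for it.

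Globins aside, Mia, Cnmd, Sfrp1, Sorbs2, Prdm16 and S100b differed most towards the maxillary side at P1. Sfrp1, which binds Wnt proteins, was at 2.19 CPM in the P1 mandibular and 213 (144 to 304) CPM in the P1 maxillary cells, and S100b, a calcium-binding protein of cartilage and nerve sheath, at 4.37 and 284 (203 to 386) CPM. Sox10 and Foxd3, markers of nerve sheath cells, had 0 UMIs in the P1 maxillary cells. Towards the mandibular side stood Tnmd, Kera, Egfl6, Ptgis, Fndc1 and Col1a1 of the Tnmd-positive cells, and Ibsp and Spp1. Alx1 and Pax3, transcription factors of the upper face, were at 128 (75.7 to 202) CPM in 14 cells and 70.9 (34.0 to 130.5) CPM in 7 cells of the P1 maxillary molar, and the other 77 selected cells together had 1 UMI of Alx1 and 0 of Pax3. In the other mesenchyme of that library, Alx1 was at 26.3 and Pax3 at 30.0 CPM, found in 12.2 and 12.6% of its cells at a median of 6156 UMIs, and in 2.23 and 2.51% of its immune cells at a median of 3885 UMIs. After thinning to 2000 UMIs the shares were 30.0 and 13.3% of the selected cells and 8.85 and 9.10% of other mesenchyme. Of 38 genes of jaw and face patterning, 15 had enough counts at P1. Of these, 4 were at least 2-fold higher in the maxillary cells, among them Alx1, Pax3 and Tfap2b, and 3 in the mandibular cells, among them Barx1 and Shox2, beside 18.6 and 15.7% of all genes.

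At E15.5 the same comparison of the jaws was made with more UMIs behind it. Of 6737 genes, 391 were at least 2-fold higher in the maxillary cells (5.80%) and 358 lower (5.31%), with intervals excluding 1 for 315 and 252, and the median log2 difference over all genes was 0.02, against 0.11 at P1. Of the 16 cartilage matrix genes with enough counts, Col9a3, Matn3, Comp, Cnmd, Fmod and Scrg1 were higher in the maxillary cells and 0 were lower. Cnmd had a log2 difference of 2.20 (1.66 to 2.75) and Col9a3 of 1.14 (0.96 to 1.31). Genes of the cell cycle went the other way, with 7 of 8 S phase and 9 of 10 G2/M genes lower in the maxillary cells. Of the 703 G2/M UMIs in the mandibular cells, 271 and 286 were in 2 cells. Without these 2 cells the summed G2/M list was at 156.6 CPM (132 to 184) in the mandibular cells in place of 665.4 CPM, against 178 CPM (143 to 220.3) in the maxillary cells, and 0 of 5 G2/M genes with enough counts were lower in the maxillary cells, while 6 of 7 S phase genes were. At least 2 UMIs of the G2/M list were found in 55.2 and 52.6% of the mandibular and maxillary cells at E15.5 and in 20.7 and 19.4% at P1. After thinning these shares were 6.90, 5.26, 17.2 and 10.0%, against 17.5, 16.9, 12.7 and 10.8% of other mesenchyme, so that the order of the stages turned with depth and none is read from it. Fkbp6, Krt15, Phex, 4933439K11Rik, Krt17, Krt5, Ptprz1 and Aspn were the genes furthest towards the maxillary side, and the UMIs of Krt5 and Phex came from 1 cell each. Furthest towards the mandibular side were Fcer1g, Hist1h1b, Grik4, Hbb-bs, Xist, Gm13842, Tex21 and Hbb-bt. Most mandibular UMIs of Fcer1g, Hbb-bs and Hbb-bt were in 1 cell each.

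Among signalling genes, some members were higher at E15.5 and others at P1. Of 16 genes of the BMP and GDF pathway, Bmp6 and Bmp7, ligands of chondrocytes, were at least 4-fold above other mesenchyme in both E15.5 libraries, beside 4.14 and 4.65% of all genes. Bmp6 was at 98.4 and 159.7 CPM and Bmp7 at 70.0 and 56.0 CPM. At P1 they were at 32.8 and 28.4 CPM and at 35.0 and 14.2 CPM. Each was thus lower in the P1 library of its jaw, whereas Bmp5 and the receptor gene Bmpr1b went the opposite way. Bmp5 was at 16.1 and 31.1 CPM at E15.5 and at 56.8 (37.1 to 83.2) and 114 (64.9 to 184) CPM at P1, and Bmpr1b had 3 and 1 UMIs at E15.5 and stood at 258 and 156 CPM at P1. The log2 difference of P1 from E15.5 for Bmpr1b was 6.50 (4.92 to 8.80) in the mandibular and 6.23 (3.60 to 11.60) in the maxillary cells. In the P1 mandibular library all 118 UMIs of Bmpr1b were in the Tnmd-positive cells and 25 of the 26 UMIs of Bmp5 in the other 4. Bmp5 and Bmpr1b were counted as higher and Bmp6 and Bmp7 as lower at P1 in both jaws, out of 8 BMP and GDF genes with enough counts, beside 5.73% of all genes higher and 7.33% lower in both jaws. Of 10 FGF genes, Fgfr3 and Fgfrl1 were counted above other mesenchyme at E15.5, 2 of 8 and 2 of 7 with enough counts beside 4.14 and 4.65% of all genes, and Fgfrl1 also in the P1 maxillary cells. Fgfr3 was lower at P1 in both jaws, 1 of 4, beside 7.33% of all genes. Of 9 hedgehog and PTHrP genes, Ihh and Pth1r were lower and Gli2, a transcription factor of the pathway, higher at P1 in both jaws, out of 6, beside the same shares of all genes. On the mandibular side of these counts 25 of the 29 P1 cells were Tnmd-positive, so stage and kind of cell cannot be told apart there. In the other 4 cells the levels of Fgfr3 and Pth1r, given above, were near those of the E15.5 mandibular cells.

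Of 30 Wnt pathway genes, 4 of 20 with enough counts were at least 4-fold above other mesenchyme in the E15.5 mandibular, 2 of 20 in the E15.5 maxillary, 1 of 25 in the P1 mandibular and 1 of 24 in the P1 maxillary cells, beside 4.14, 4.65, 2.22 and 3.09% of all genes. Fzd9, a Frizzled receptor, was at 40.7, 78.8, 19.7 and 135 CPM, against 0.715, 1.34, 1.09 and 2.13 CPM in other mesenchyme. Its log2 ratios were 5.83 (5.13 to 6.55), 5.88 (5.28 to 6.45), 4.17 (2.98 to 5.19) and 5.99 (5.21 to 6.68). It was above other mesenchyme in each library, though at under 20 CPM in the P1 mandibular cells. Wnt4, a ligand made in joints and maturing cartilage, was at 46.4 and 93.3 CPM at E15.5 and at 21.9 and 7.09 (0.180 to 39.5) CPM at P1. Frzb, a secreted Wnt inhibitor first found in cartilage, was at 80.5 and 122 CPM at E15.5 and at 3 UMIs in each P1 library. Both were counted as lower at P1 in both jaws, and Wnt5a and Sfrp2 as higher, out of 14 with enough counts, beside 7.33 and 5.73% of all genes. Most P1 mandibular cells behind these counts were Tnmd-positive, so stage and kind of cell cannot be told apart on that side. Wnt5a had 11, 2, 12 and 4 UMIs, so that its levels are loose. The list summed to 766.7, 943.7, 1160.4 and 1107 CPM, below the 1467, 2554, 2190 and 2473 CPM of other mesenchyme.

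Markers of other cell types were followed in the same cells. The 5 tendon markers summed to 13.3, 35.3, 8324 and 35.5 CPM, with Scx, the tendon transcription factor, at 0 UMIs in both E15.5 libraries and at 275 CPM in 28 of the 29 P1 mandibular cells. The 8 osteoblast markers summed to 1438, 1039, 4998 and 28.4 CPM, and Ibsp was the most abundant of them in all but the P1 maxillary cells, where 4 UMIs were found in all. Epithelial markers were at 0, 45, 8 and 1 UMIs, 30 of the 45 being Krt5 in 1 cell, endothelial markers at 3, 0, 3 and 0 and immune markers at 94, 7, 5 and 1, of which 92 in the E15.5 mandibular cells were Fcer1g from 3 cells. No epithelial, endothelial or immune list reached 100 CPM in any library. Muscle markers had 21, 5, 36 and 1 UMIs, glia markers 13, 4, 0 and 1, pericyte markers 8, 3, 1 and 3, neuron markers 51, 6, 3 and 2 and odontoblast markers 3, 52, 24 and 0. The part of such cells, or of their free RNA, in the differences above was not tested.

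Globin RNA differed between libraries by single cells. The 5 erythroid markers summed to 8041, 541.3, 491.7 and 26485 CPM in the selected cells and to 11804, 11320, 5359 and 2573 CPM in other mesenchyme, so that the P1 maxillary cells alone lay above it. In the E15.5 mandibular molar 1 cell held 4308 UMIs of Hbb-bs, and in the P1 maxillary molar 3 cells held 549, 786 and 761. Without these 4 cells, 26 genes were counted above other mesenchyme in place of 25, and the 25 were among them. Genes that answer to tissue dissociation moved with stage. Fos, Jun, Egr1, Atf3, Hspa1a and Hspa1b summed to 664.5 CPM (616 to 715) and 1475 CPM (1368 to 1587) at E15.5 and to 3743 CPM (3568 to 3925) and 8053 CPM (7591 to 8535) at P1. In other mesenchyme Fos was at 478, 817, 744 and 717 CPM, and the selected cells had 96.5, 170.1, 1471 and 2746 CPM, below it at E15.5 and above it at P1. In the P1 mandibular library Fos was at 1969 CPM in the Tnmd-positive cells and at 337 CPM in the other 4. The part of dissociation in the stage differences was not tested.

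**Figure D5:**
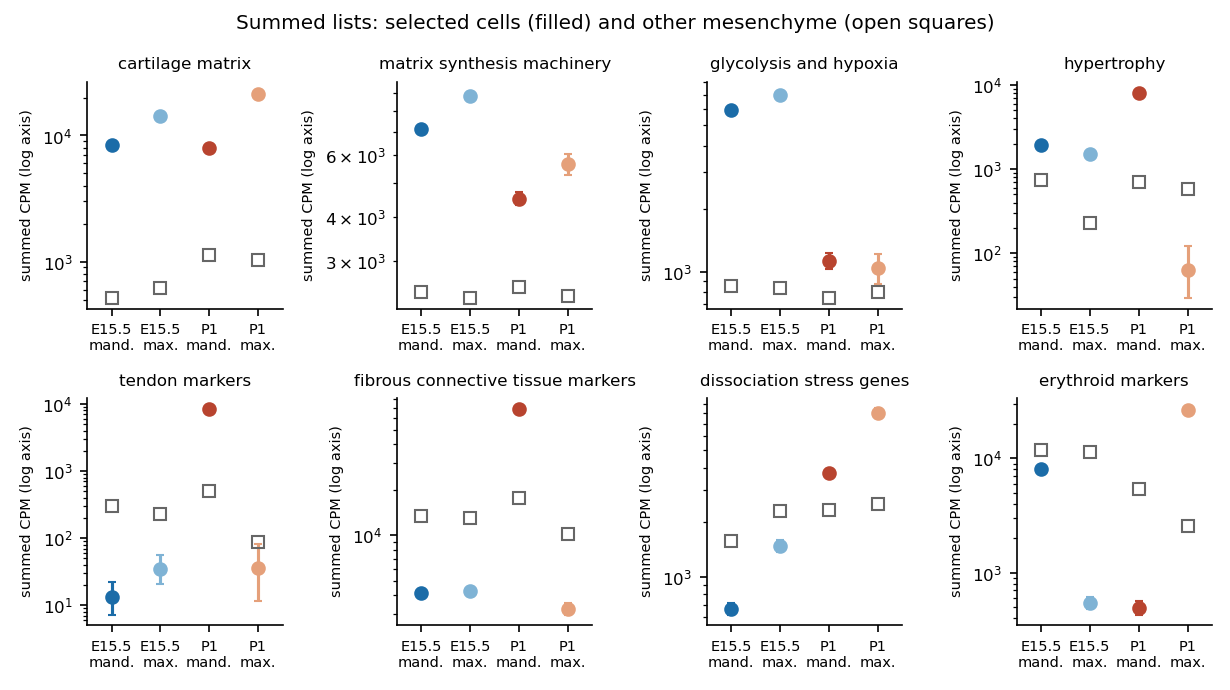
Summed level of 8 gene lists (CPM, log axis) in the selected cells of each library (filled, with exact Poisson 95% intervals) and in other mesenchyme (open squares). The tendon and fibrous lists stand out in the P1 mandibular cells, glycolysis at E15.5, and the hypertrophy and erythroid lists move in opposite ways in the jaws.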

How the data were processed

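Droplet single-cell libraries (10x Genomics 3' v3.1 chemistry) were made from 6 pooled molar tooth organs for each stage and jaw, 4 libraries in all. The deposited matrices hold raw UMI counts per gene and barcode, which the authors made with Cell Ranger (7.0.1 in the file headers) on mouse build mm10. All 4 count matrices were used, and no column of them was left out of use (0). Cells and genes were handled in Python 3.11.15 with numpy 2.4.6, scipy 1.17.1, pandas 2.3.3, scanpy 1.11.5 and matplotlib 3.10.9.

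The selection rule, the gene lists and the comparisons were chosen with earlier results of these data known. UMIs were summed per library and set of cells and given as CPM with exact Poisson 95% intervals, and ratios with exact binomial 95% intervals. A count of 0 was set to 3 in a ratio, which then is a bound, and no ratio was formed where both counts were 3 or lower. Since each group has 1 library, no test was run, and no spread between replicates or pairs of replicates could be formed. Genes were counted by the size of the difference only, at 4-fold against other mesenchyme and at 2-fold between libraries, with at least 20 CPM in the higher group. A library needed 20 selected cells for a comparison. The E15.5 maxillary library, with 19, was brought into the comparisons of stage and of jaw at E15.5 after the data were seen. Named genes were the 10 with the largest smallest difference from other mesenchyme, and the 8 with the largest difference in each direction between libraries, given that the higher group reached 50 CPM. Genes named outside this rule come from the lists or are said to be chosen for what they show. Doublets were scored with Scrublet, taking the top 0.8% per 1000 cells as doublet-scored, and were removed only as an alternative. Other alternatives changed the Col2a1 minimum, the scaling, the weight of cells and the cells compared against, thinned cells to one depth, or left out libraries and cells. Gene positions are those of GENCODE M21. A few genes that met these rules are not reported here.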

Additional observations from a re-analysis of the deposited data

Results flagged for a closer look

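Several summed lists went opposite ways between stages in the jaws, and none of these differences was tested, with 1 library per group. The log2 difference of P1 from E15.5 for the hypertrophy list was -4.59 in the maxillary and 2.07 in the mandibular cells, and for osteoblast markers -5.19 and 1.80. In both lists Ibsp was the most abundant gene in all but the P1 maxillary cells, where it was at 0 UMIs, and 96.5% of its P1 mandibular UMIs were in 1 cell. The hypertrophy list was at 22.0 CPM in the 25 Tnmd-positive cells of that library and at 26272 CPM in the other 4. For erythroid markers the differences were 5.61 and -4.03, with 92.9% of the Hbb-bs UMIs of the E15.5 mandibular cells in 1 cell and most of those of the P1 maxillary cells in 3. Epithelial markers, at few UMIs, differed by -3.72 in the maxillary cells and by 2.62 in the mandibular cells, the last a bound because E15.5 was at 0 UMIs. Odontoblast markers differed by -2.34 in the maxillary cells, a bound because P1 was at 0 UMIs, and by 4.21 in the mandibular cells. Phex of that list had all its 52 E15.5 maxillary UMIs in 1 cell.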

How the results depend on the processing

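The number of selected cells depended most on the Col2a1 minimum in the P1 mandibular library, where 51 cells met a minimum of 5, 6 a minimum of 20, 1 a minimum of 0.2% of UMIs, and 4 remained without the Tnmd-positive cells. In the P1 maxillary library 18 met a minimum of 20, and in the E15.5 mandibular library 18 met 0.2% of UMIs. Of the 25 genes above other mesenchyme, 15 were among the 16 counted at a minimum of 5, 8 among the 8 without doublet-scored cells, 13 among the 15 with each cell weighted equally and 9 among the 13 after thinning. The count was 38 with no CPM minimum, 53 without the Tnmd-positive cells and 53 without the P1 mandibular library, and it was 331 with a Col2a1 minimum of 20 and 210 with 0.2% of UMIs, where 1 library alone had enough cells. The mandibular stage counts of 1055 and 1278 became 457 and 520 at a minimum of 5 and 362 and 463 where 18 selected cells sufficed, which brings in both jaws. Higher genes numbered 1836 and lower ones 1977 with no CPM minimum. Lower genes numbered 2101 without doublet-scored cells, 1940 with equal weights and 778 with median-ratio scaling. The P1 jaw counts of 1365 and 1154 became 104 and 38 at a minimum of 5 and 98 and 44 where 18 cells sufficed, both of which also bring in E15.5. They were 705 and 505 where the interval had to exclude a ratio of 1, and 883 genes were higher in the maxillary cells after thinning. Thinning took the share of cells with Ihh to 13.8 and 15.8% and that with G2/M genes to 6.90 and 5.26% in the E15.5 mandibular and maxillary cells, and that with Col10a1 to 0% in the latter. Prelp was no longer higher than other mesenchyme without doublet-scored cells, where it had 0 UMIs in the P1 mandibular library. Its log2 difference of -0.11 was a bound with an upper limit of 0.20. It was labelled as reversed, but no direction is read from it. At a minimum of 20 or 0.2% of UMIs, and without the Tnmd-positive cells or the P1 mandibular library, the comparisons of stage and jaw were not made for want of cells. No pairing of replicates was possible because each group has 1 library, and a stage difference paired over the jaws was not tested. Of the values of single genes recomputed under an alternative, 444 stayed within their range, 102 moved and 1 reversed, and of the counts and shares 73 stayed and 36 moved, and the cause of these moves was not tested.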
